A study of Rattus norvegicus with 20 samples.

Results

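Transcripts of 9 enzymes and enzyme subunits of the tricarboxylic acid cycle were followed across 4 groups of male ZDF (Zucker diabetic fatty) rats, a Zucker strain used as a model of obesity with diabetes. The members were listed by gene symbol: Cs, Idh3a, Idh3b, Idh3g, Ogdh, Dlst, Sucla2, Suclg1 and Mdh2. Of these 9 genes, 8 were measured among the 14557 genes that the platform's gene table names with a single symbol, each by 1 feature. Ogdh, the E1 subunit of the 2-oxoglutarate dehydrogenase complex, was not matched there and was not analysed here. RNA came from tissue labelled only as retroperitoneal, 100 ng of total RNA per sample went onto an Affymetrix rat whole-transcript array, and each group had 5 arrays labelled as biological replicates. The groups were rats labelled rosiglitazone, rats labelled resveratrol, obese rats kept on a stock diet (6 weeks) and lean control rats on standard chow. Rosiglitazone, an insulin sensitiser, activates the nuclear receptor PPARG. Resveratrol is a polyphenol made by plants. The dose, the diet of the treated rats, whether treated rats were of the obese kind, and the age of any group are unstated in the labels. Values are log2 levels after RMA, a difference is the mean log2 level of the first group minus that of the second, and a gene was called changed when limma gave an adjusted p below 0.05 (Benjamini-Hochberg, 14557 genes).

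The cycle runs in the mitochondrial matrix. It joins acetyl-CoA to oxaloacetate as citrate, oxidises that carbon to carbon dioxide and passes the electrons to the respiratory chain. In adipocytes it has a further role, because citrate leaves the mitochondrion to supply acetyl-CoA for fatty acid synthesis, and pyruvate carboxylase refills the cycle for this. Brown adipocytes hold many more mitochondria than white ones and burn the reducing equivalents for heat through the uncoupling protein UCP1.

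Markers of adipocytes were high in all groups, with a log2 summed level of 13.50 to 13.60 in the rosiglitazone group, 13.28 to 13.73 in the obese group and 13.61 to 13.74 in lean controls. In the resveratrol group, array 1 had 12.35 against 13.60 to 13.70 for the other 4. That array also carried skeletal muscle markers at a log2 summed level of 11.29, against 5.33 to 5.67 for the others of its group, and mammary gland markers at 12.34. Obese array 2 carried urothelium markers at 10.27, and all 7 adipocyte markers were lower on it than on the other obese arrays. Rosiglitazone array 2 had the highest level of its group for 8 of 8 cycle genes, by 1.01 on average above the group mean, and stood apart in brown adipocyte markers as given below. The calls below were therefore also computed without these 3 arrays. Lean control array 1 was also the highest of its group for 8 of 8 cycle genes, by 0.48 on average above the group mean, and had macrophage markers at a log2 summed level of 11.27, against 8.74 to 10.42 for the other lean control arrays. Leaving it out changed no count of cycle genes called. Array medians ranged from 2.46 to 2.63; 5 arrays a group bound the precision of each mean.

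All 8 measured cycle transcripts were higher in the rosiglitazone group than in the obese group. The differences ran from 1.38 for Dlst to 1.90 for Idh3a, which are folds of 2.60 to 3.74, and for each gene all 5 rosiglitazone arrays lay above all 5 obese arrays. Over all genes, 7.19% were called higher in this comparison, and 6.14% had every rosiglitazone array above every obese array. The median difference over the 8 genes was 1.51, against 0.01 over all genes. Markers of endothelial cells and 2 brown adipocyte markers changed in the same comparison, with values given further on. In whole tissue, fewer cells of a type and less RNA per cell cannot be told apart.

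Citrate synthase, encoded by Cs, forms citrate from acetyl-CoA and oxaloacetate and is widely used as a marker of mitochondrial content. Its log2 levels were 8.88, 9.71, 8.37, 8.87 and 8.45 on the rosiglitazone arrays, against 7.75, 6.84, 7.06, 7.34 and 7.08 on the obese arrays. The resveratrol arrays had 6.67, 7.35, 7.46, 7.65 and 7.57, and the lean control arrays had 8.05, 7.17, 7.42, 7.51 and 7.74. The rosiglitazone arrays stood above every array of the other groups, while the resveratrol, obese and lean control arrays overlapped. The mean was 8.86 ± 0.53 in the rosiglitazone group and 7.21 ± 0.35 in the obese group (SD, n = 5 each), a difference of 1.64 (SE 0.24) or 3.13-fold with a limma adjusted p of 0.000171.

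NAD-dependent isocitrate dehydrogenase turns isocitrate into 2-oxoglutarate and is built from an alpha subunit, which carries the catalytic site, and beta and gamma subunits. Idh3a, the alpha subunit, had log2 levels of 8.92, 10.36, 7.999, 8.41 and 8.79 on the rosiglitazone arrays, against 7.63, 6.81, 6.89, 6.99 and 6.65 on the obese arrays. It reached 5.65, 7.58, 7.19, 7.33 and 7.37 on the resveratrol arrays, and 7.82, 6.33, 7.08, 6.55 and 6.56 on the lean control arrays. Idh3a had the widest spread within groups of the 8 genes, with a within-group SD of 0.69, and its extremes were rosiglitazone array 2 and resveratrol array 1. Its difference between the rosiglitazone and obese groups was 1.90 (SE 0.39, 95% confidence interval 1.10 to 2.70, limma adjusted p = 0.00308).

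Idh3b, the beta subunit, had 9.21, 10.03, 8.66, 8.88 and 8.99 on the rosiglitazone arrays, against 7.74, 7.01, 7.29, 7.36 and 7.40 on the obese arrays. It had 7.04, 7.99, 7.32, 7.70 and 7.86 on the resveratrol arrays, and 8.59, 8.08, 8.04, 7.97 and 7.92 on the lean control arrays. For this subunit the lean control arrays formed a middle level, below every rosiglitazone array and above every obese array. The difference between the rosiglitazone and obese groups was 1.79 (SE 0.22), or 3.46-fold, with a limma adjusted p of 4.45e-05, the smallest among the 8 genes.

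Idh3g, the gamma subunit, had 9.19, 9.85, 8.63, 9.09 and 8.999 on the rosiglitazone arrays, against 7.87, 7.32, 7.61, 7.64 and 7.64 on the obese arrays. The resveratrol arrays spanned 6.81 to 8.07 and the lean control arrays 7.60 to 8.37, so those groups overlapped each other and the obese group. The rosiglitazone group exceeded the obese group by 1.53 (SE 0.23), with a limma adjusted p of 0.000236.

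**Figure D1:**
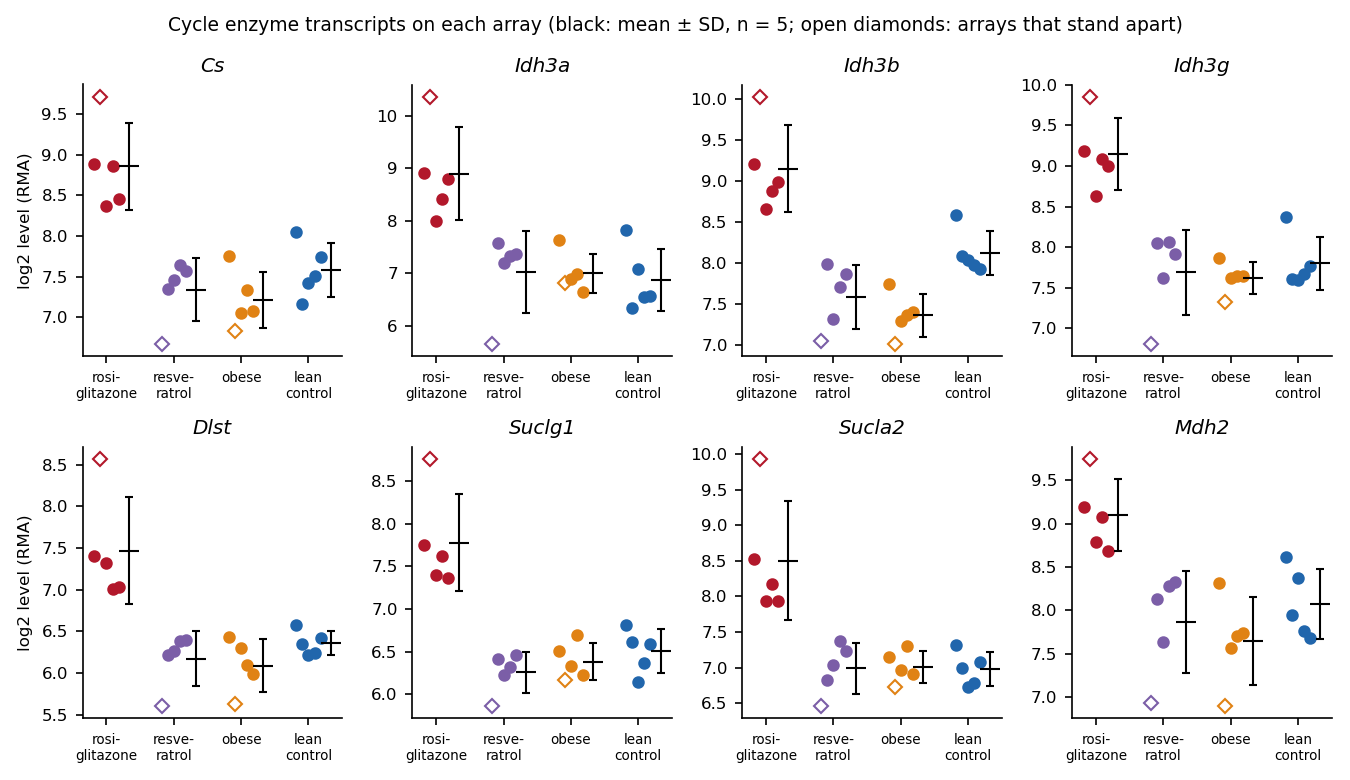
Log2 level of each of the 8 measured cycle genes on every array, in the rosiglitazone, resveratrol, obese and lean control groups. Points are arrays, bars are group means with SD, and open diamonds mark rosiglitazone array 2, resveratrol array 1 and obese array 2. The 5 rosiglitazone arrays lie above all arrays of the other groups in each panel.

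Dlst encodes the E2 subunit of the 2-oxoglutarate dehydrogenase complex, which hands the succinyl group to coenzyme A. It had 7.41, 8.57, 7.32, 7.01 and 7.04 on the rosiglitazone arrays, against 6.43, 5.62, 6.30, 6.10 and 5.99 on the obese arrays. Dlst showed the smallest difference of the 8 genes in this comparison, 1.38 (SE 0.23, limma adjusted p = 0.000684), and rosiglitazone array 2 lay 1.16 above the next array of its group.

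Succinyl-CoA synthetase pairs the common alpha subunit from Suclg1 with a beta subunit, and the beta subunit from Sucla2 gives the ADP-forming enzyme. Suclg1 had 7.75, 8.76, 7.40, 7.63 and 7.37 on the rosiglitazone arrays, against 6.51, 6.16, 6.33, 6.69 and 6.23 on the obese arrays. Sucla2 had 8.53, 9.93, 7.94, 8.18 and 7.94 on the rosiglitazone arrays, against 7.15, 6.73, 6.96, 7.30 and 6.91 on the obese arrays. Both subunits were separated between the groups with no overlap, by 1.39 (SE 0.21, limma adjusted p = 0.000236) for Suclg1 and by 1.49 (SE 0.28, limma adjusted p = 0.00142) for Sucla2.

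Mdh2, mitochondrial malate dehydrogenase, regenerates oxaloacetate and also serves the malate-aspartate shuttle. It had 9.19, 9.74, 8.79, 9.07 and 8.69 on the rosiglitazone arrays, against 8.32, 6.90, 7.57, 7.70 and 7.74 on the obese arrays. The lowest rosiglitazone array stood only 0.37 above the highest obese array, a narrower gap than for Idh3b. The difference was 1.45 (SE 0.28), or 2.73-fold, with a limma adjusted p of 0.00183.

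Without rosiglitazone array 2, resveratrol array 1 and obese array 2, all 8 genes passed the test for the rosiglitazone group against the obese group, with differences from 0.99 for Dlst to 1.49 for Idh3a. Cs differed by 1.34, Idh3b by 1.49 and Mdh2 by 1.10 in that fit. Over all genes, 5.77% were called higher there.

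**Figure D2:**
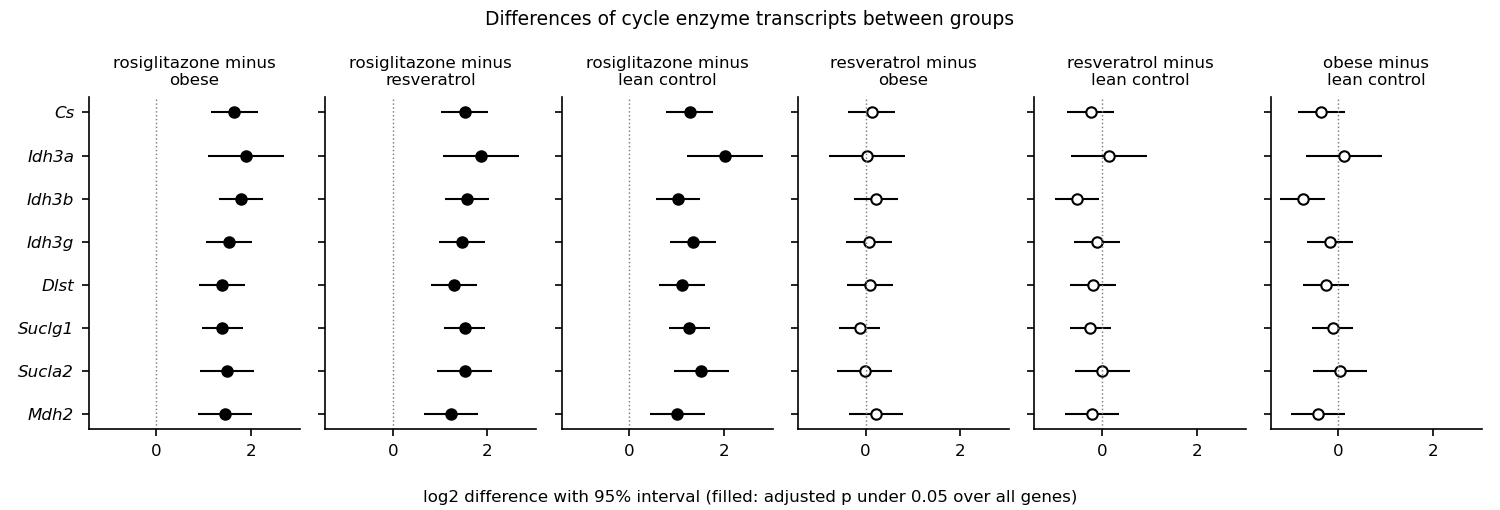
Differences in mean log2 level for each cycle gene in 6 group comparisons, with 95% confidence intervals. Filled points passed the limma test. All 3 comparisons of the rosiglitazone group with another group lie to the right of 0 for each gene, and none of the others passed.

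Promoter windows were searched because the genes were higher in the rosiglitazone group, and only the 4 that hold the letters CCGGAAG are printed. The windows of Cs, Sucla2 and Suclg1 lack these letters and are not printed. RefSeq windows on build GRCr8, from 250 bases before to 50 after the transcript start that the table uses, were matched by symbol for 7 of the 8 measured genes, with no match for Idh3a, and for the unmeasured Ogdh, which is left out of the counts of 7. The letters CCGGAAG, a motif of ETS factors such as the GABP complex that is known for nuclear genes of mitochondrial proteins, were searched on both strands. They occurred in 4 of 7 windows, those of Idh3b, Idh3g, Dlst and Mdh2, against 8.75% of all 33469 windows and 12.2% of the 12662 windows of measured genes. The windows are chr3:137939941-137940240 on the minus strand for Idh3b, chrX:156675433-156675732 on the minus strand for Idh3g, chr6:110489456-110489755 on the plus strand for Dlst and chr12:26543792-26544091 on the minus strand for Mdh2. Capitals mark CCGGAAG or its reverse complement CTTCCGG, and in Idh3g also AAGATGGCG and the reverse complement of AGGTCA.
Idh3b: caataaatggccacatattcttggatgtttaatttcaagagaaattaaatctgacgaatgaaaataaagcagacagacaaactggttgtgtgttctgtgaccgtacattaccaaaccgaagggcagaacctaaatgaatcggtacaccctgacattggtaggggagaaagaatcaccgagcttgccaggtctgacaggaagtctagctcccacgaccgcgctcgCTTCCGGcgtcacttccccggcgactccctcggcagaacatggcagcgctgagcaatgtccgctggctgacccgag
Idh3g: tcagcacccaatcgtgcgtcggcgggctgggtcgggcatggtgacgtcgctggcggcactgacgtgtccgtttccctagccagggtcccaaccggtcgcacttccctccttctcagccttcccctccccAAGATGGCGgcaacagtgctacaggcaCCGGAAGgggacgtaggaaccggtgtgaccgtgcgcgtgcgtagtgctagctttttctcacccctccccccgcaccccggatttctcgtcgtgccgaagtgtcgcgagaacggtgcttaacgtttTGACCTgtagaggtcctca
Dlst: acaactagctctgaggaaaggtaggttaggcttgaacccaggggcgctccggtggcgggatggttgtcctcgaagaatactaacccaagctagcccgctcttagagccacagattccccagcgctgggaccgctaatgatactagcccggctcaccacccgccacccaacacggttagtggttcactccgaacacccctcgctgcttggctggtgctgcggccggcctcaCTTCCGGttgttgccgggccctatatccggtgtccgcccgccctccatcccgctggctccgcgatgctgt
Mdh2: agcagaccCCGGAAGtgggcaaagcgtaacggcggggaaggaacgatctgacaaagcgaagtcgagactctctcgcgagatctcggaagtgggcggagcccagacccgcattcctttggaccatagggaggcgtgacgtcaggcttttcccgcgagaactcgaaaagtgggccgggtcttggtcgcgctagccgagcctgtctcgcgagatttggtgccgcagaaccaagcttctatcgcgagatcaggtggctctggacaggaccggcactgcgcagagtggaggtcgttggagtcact
The ETS letters ended 20 bases before the start in Idh3b and 14 before it in Dlst, and lay farther upstream in Idh3g and Mdh2, where they ended 88 and 236 bases before the start. AAGATGGCG, a motif of YY1, was found in Idh3g alone of the 7, against 1.73% of all windows and 2.33% of those of measured genes. The palindromic motif of the factor NRF1 was found in Sucla2 alone, against 4.25% of all windows and 6.4% of those of measured genes. The nuclear receptor letters AGGTCA were in Idh3g alone, against 16.2% of all windows and 13.5% of those of measured genes. A pair of longer motifs that contain them were in none of the 7: TNAAGGTCA, known for estrogen-related receptors (1.2% of all windows, 0.79% of those of measured genes), and the direct repeat of AGGTCA with a spacer of 1 base, the kind that PPAR binds (0.0538% and 0.0316%). GGGCGG, a GC box, was in 4 of 7, against 33.1% of all windows and 45.8% of those of measured genes, and is not capitalised. Matches are letters in these windows only, and no binding was measured.

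Against the resveratrol group, the rosiglitazone group was again higher for 8 of 8 cycle genes, all with no overlap between the groups. Over all genes, 4.09% were called higher, and 4.43% had every rosiglitazone array above every resveratrol array. The differences ran from 1.23 for Mdh2 to 1.87 for Idh3a, with a median of 1.52 against 0.02 over all genes. Cs differed by 1.52 (limma adjusted p = 0.000552) and Suclg1 by 1.52 (limma adjusted p = 0.000172). Without the 3 arrays all 8 genes passed as well, by 0.84 for Mdh2 to 1.22 for Idh3b, where 3.32% of all genes were called higher. This comparison shares the rosiglitazone arrays with the one against the obese group.

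Against lean controls, 8 of 8 cycle genes were higher in the rosiglitazone group and the arrays did not overlap for any of them, while 2.63% of all genes were called higher and 2.36% had no overlap in that direction. The difference was 2.02 for Idh3a (limma adjusted p = 0.00291) and 1.52 for Sucla2 (limma adjusted p = 0.00196). It was smaller for Idh3b, 1.03 (limma adjusted p = 0.00769), and for Mdh2, 1.02 (limma adjusted p = 0.0331). Mdh2 had 8.62, 7.95, 8.37, 7.77 and 7.68 on the lean control arrays, the highest of which stood 0.07 below the lowest rosiglitazone array. The call for Mdh2 was lost in 6 of 10 fits that left out 1 array, those without rosiglitazone array 1, 2 or 4 or lean control array 2, 4 or 5, in which its limma adjusted p reached 0.0936. Without the 3 arrays together all 8 passed, against 3.86% of all genes called higher, by 0.81 for Idh3b to 1.66 for Idh3a, and Mdh2 by 0.85 (limma adjusted p = 0.0126).

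The resveratrol group showed no called difference from the obese group in any of the 8 cycle genes. No gene of the 14557 passed limma in this comparison, a share of 0%. At an unadjusted p under 0.05 there were 1286 genes, or 8.83%, and 0 of the 8 cycle genes. The differences ran from -0.13 for Suclg1 to 0.22 for Idh3b, and the arrays of the groups overlapped for each gene. The 95% confidence intervals reached from -0.37 to 0.62 for Cs and from -0.77 to 0.83 for Idh3a, so changes inside those bounds were not excluded. Without resveratrol array 1 the differences were 0.29 for Cs, 0.37 for Idh3a and 0.45 for Mdh2, and again none passed (limma adjusted p of 0.605 to 0.976).

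The obese group did not differ from lean controls at the threshold in any of the 8 cycle genes, and 0.179% of all genes were called in either direction. At an unadjusted p under 0.05 there was 1 of the 8, against 13.5% of all genes. This was Idh3b, whose 5 obese arrays, 7.01 to 7.74, all lay below the 5 lean control arrays, 7.92 to 8.59. Over all genes, 2.64% were fully separated in either direction. The Idh3b difference was -0.76 (95% confidence interval -1.23 to -0.29), a level 1.69-fold lower, with a limma adjusted p of 0.151 that ranged from 0.0856 to 0.302 over the alternative settings. Mdh2 followed at -0.43 and Cs at -0.37, whereas Idh3a was at 0.12 and Sucla2 at 0.03. The Idh3b difference was -0.67 without the 3 arrays (limma adjusted p = 0.0856) and -0.64 without lean control array 1 (limma adjusted p = 0.265). The order of mean Idh3b levels was rosiglitazone, lean control, resveratrol and obese. No difference among the last 3 groups passed the test, and resveratrol overlapped both of its neighbours, so their order is only described.

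The resveratrol group likewise had no called difference from lean controls in the 8 genes (0.124% of all genes were called in either direction), and 1 of the 8 had an unadjusted p under 0.05 (13.8% of all genes), again Idh3b at -0.54 (95% confidence interval -1.003 to -0.07, limma adjusted p = 0.284). The other 7 ran from -0.25 to 0.15. This comparison shares its lean control arrays with the preceding one.

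Whether subunits of an enzyme changed by unequal amounts was examined as the log2 difference between their features on the same array. In the rosiglitazone group against the obese group, Idh3a minus Idh3b shifted by 0.11 and Sucla2 minus Suclg1 by 0.10, with 0.603 as the adjusted p of both in a two-sided exact permutation test, adjusted over 4 pairs. Idh3a minus Idh3g had the largest shift, 0.37 (adjusted exact permutation p = 0.365), and Idh3b minus Idh3g shifted by 0.26 (adjusted exact permutation p = 0.0635). Ogdh was not measured, so its ratio to Dlst was not tested.

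The same ratios in the other comparisons were added after the data had been seen, which makes 24 tests. Idh3b minus Idh3g ran from -0.33 to -0.13 on the obese arrays, against 0.16 to 0.48 on the lean control arrays, and the groups did not overlap. That shift of -0.58 had the smallest p the groupings can give, 0.00794, and an exact permutation p of 0.0635 after adjustment over the 24. Idh3a minus Idh3b was -0.37 ± 0.24 in the obese group and -1.25 ± 0.39 in lean controls (SD, n = 5 each), a shift of 0.88 with the same exact permutation p. That pair also shifted by 0.99 in the rosiglitazone group against lean controls, with the same exact permutation p of 0.00794 (0.0635 adjusted), and these comparisons share the lean control arrays. In the resveratrol group against lean controls, Idh3a minus Idh3b shifted by 0.69 and Idh3b minus Idh3g by -0.43 (adjusted exact permutation p = 0.121 and 0.0816). Of the resveratrol arrays only array 1, at -1.39 and 0.23, lay within the range of the lean control arrays. With all arrays none of the 24 passed 0.05 after adjustment. With arrays left out, at least 2 ratio results in resveratrol minus lean control did pass.

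**Figure D3:**
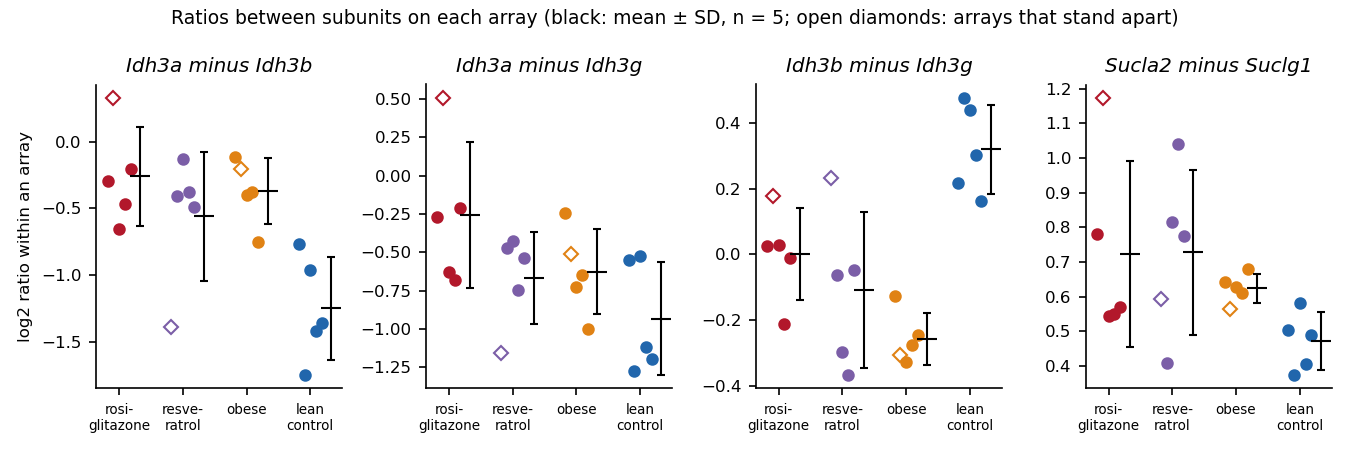
Log2 difference between 2 subunits on the same array for Idh3a minus Idh3b, Idh3a minus Idh3g, Idh3b minus Idh3g and Sucla2 minus Suclg1, by group. Points are arrays, bars are means with SD, and open diamonds mark the 3 arrays that stand apart. The level of each difference depends on the probes, so only shifts between groups can be read, and none passed after adjustment with all arrays. For Idh3b minus Idh3g every obese array lies below every lean control array.

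The rest of the cycle was represented by 7 of 12 further listed genes. In the rosiglitazone group against the obese group 5 of these 7 were higher and none lower, with a median of 1.12. Of all genes, 7.19% were called higher there. Of succinate dehydrogenase, which also forms respiratory complex II, all 4 subunits were higher: Sdha by 1.30, Sdhb by 1.45, Sdhc by 1.12 and Sdhd by 1.15. Sdhb had 8.13, 9.05, 7.52, 7.57 and 7.44 on the rosiglitazone arrays, against 6.56, 6.10, 6.44, 6.77 and 6.60 on the obese arrays. Dld, the E3 subunit shared by the 2-oxoacid dehydrogenases, was higher by 0.96 (limma adjusted p = 0.0442). Ogdhl, a relative of Ogdh at a low level, differed by -0.32 (limma adjusted p = 0.257). Idh2, the NADP-dependent mitochondrial isocitrate dehydrogenase, differed by 0.39 (limma adjusted p = 0.494), and array 2 of the rosiglitazone group, at 7.84, was far above its 4 companions at 5.65 to 6.05. Without the 3 arrays its difference was 0.07, and the 5 genes called passed again, with Sdha at 1.03 and Sdhb at 1.07. Against the resveratrol group 4 of the 7 were higher, or 3 without the 3 arrays. Against lean controls 3 of the 7 were higher and 0 lower, or 5 higher and 1 lower (Idh2) without the 3 arrays.

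In the rosiglitazone group, 7.19% of all genes were called higher than in the obese group and 2.67% lower. Among genes that feed or drain the cycle, 15 of 24 measured were higher in the rosiglitazone group than in the obese group and 0 were lower, with a median of 0.99. The 6 largest were Me1, cytosolic malic enzyme, at 2.91, Acly, ATP-citrate lyase, at 2.37, Pc, pyruvate carboxylase, at 2.09, Pdhb and Dlat, subunits of pyruvate dehydrogenase, at 1.73 and 1.57, and Slc25a10, the dicarboxylate carrier, at 1.45. Acly had 9.49, 9.92, 7.75, 8.83 and 8.06 on the rosiglitazone arrays, against 6.69, 6.35, 6.73, 5.99 and 6.44 on the obese arrays. Leaving out the 3 arrays, 16 of the 24 were higher, with Me1 at 2.81, Acly at 2.07 and Pc at 1.96. Against the resveratrol group 14 of the 24 were higher, and against lean controls 11. Without the 3 arrays, 11 were higher than in lean controls and 1 was lower, Pck1 at -1.31 (limma adjusted p = 0.00652). Of the cytosolic counterparts, Mdh1 was higher by 1.05 (limma adjusted p = 0.0129) and Aco1 by 0.81 (limma adjusted p = 0.0115), while Idh1 differed by -0.19 (limma adjusted p = 0.626). In the comparisons without the rosiglitazone group, 0 of the 7 further cycle genes and 0 of the 24 passed.

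**Figure D4:**
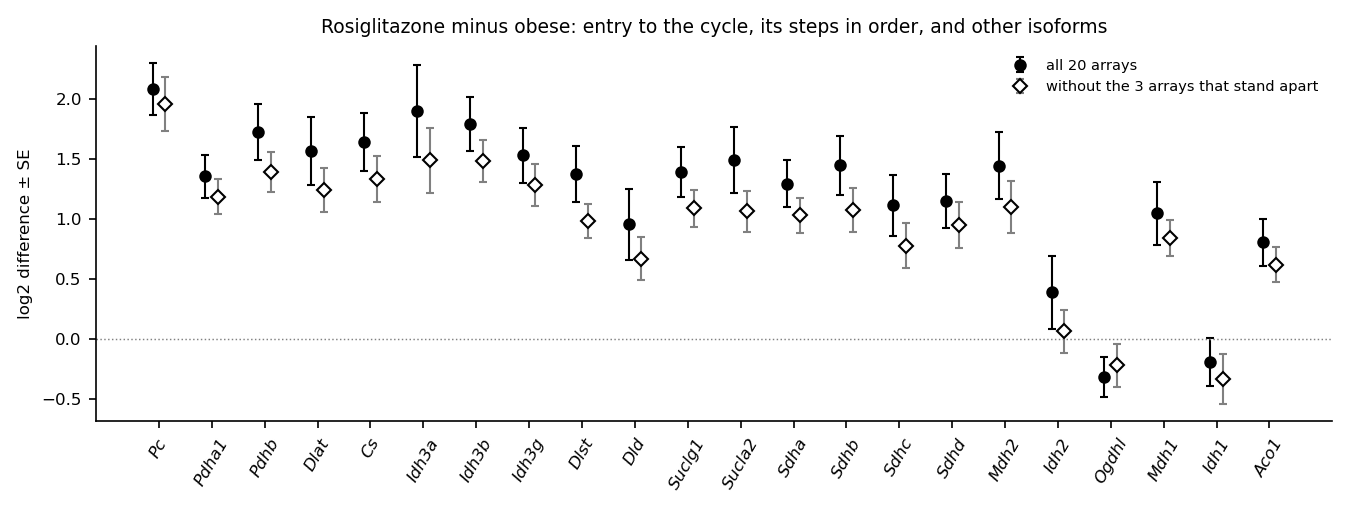
Log2 difference, rosiglitazone minus obese, with SE, for genes at the entry to the cycle, the measured cycle genes in the order of their steps, and other isoforms. Filled circles are from all 20 arrays and open diamonds from the fit without the 3 arrays. The 8 members lie between 1.38 and 1.90 with all arrays and between 0.99 and 1.49 without the 3, while Idh2, Ogdhl and Idh1 lie near or below 0.39.

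Of 12 measured regulators and mitochondrial proteases, 4 were higher in the rosiglitazone group than in the obese group, against 7.19% of all genes. These were the matrix proteases Lonp1 (0.80) and Clpp (1.04), the nuclear receptor Ppara (1.75, limma adjusted p = 0.0226) and Tfam, the mitochondrial transcription factor (0.54, limma adjusted p = 0.0405). Ppargc1a, a coactivator of mitochondrial genes, had 3.34, 6.69, 1.84, 2.25 and 2.57 on the rosiglitazone arrays, against 2.08, 2.72, 2.41, 2.22 and 1.98 on the obese arrays. Its difference of 1.05 came with a limma adjusted p of 0.267, and array 2 alone was far above the obese arrays. The regulators called were 3 without the 3 arrays, as Tfam at 0.39 no longer passed (limma adjusted p = 0.148). Gabpa, a subunit of the ETS-family complex GABP, and Esrra, estrogen-related receptor alpha, each differed by 0.00.

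Of 7 measured brown adipocyte markers (9 were listed), 2 were higher in the rosiglitazone group than in the obese group. The share of all genes called higher was 7.19%. The log2 summed level of the 7 was 10.15 to 12.04 on the rosiglitazone arrays, against 7.62 to 9.07 on the obese arrays, 6.84 to 9.62 on the resveratrol arrays and 7.87 to 9.30 on the lean control arrays. The rosiglitazone arrays did not overlap those of any other group in this sum, which rests mostly on Cidea, a lipid droplet protein that made up 60.8% to 96.8% of it on the rosiglitazone arrays, 77.3% to 97.5% on the resveratrol arrays, 89.6% to 96.5% on the obese arrays and 88.6% to 96.6% on the lean control arrays. The markers that passed the test against the obese group were Ucp1, by 4.67 (limma adjusted p = 0.000404) and Cidea, by 2.04 (limma adjusted p = 0.00634). Dio2 differed by 0.39, Elovl3 by -0.09, Cox8b by 0.98 and Zic1 by -0.04 without passing, and Dio2, Elovl3 and Zic1 lay between 0.98 and 2.47 on all 20 arrays, below the median gene level of 3.02. Ucp1 had 5.83, 10.52, 4.82, 4.73 and 5.18 on the rosiglitazone arrays, against 1.22, 1.45, 1.41, 2.25 and 1.43 on the obese arrays. Ucp1 was higher by 3.56 and Cidea by 1.59 without the 3 arrays, and both passed. Cox8b reached 6.10 on rosiglitazone array 2, but its 4 companions had 2.23 to 2.59. The array with the highest Ucp1, rosiglitazone array 2, was also the highest for each cycle gene. The part of brown adipocytes in the difference of the cycle genes was not tested.

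Markers of other cell types were read in the same comparison of the rosiglitazone group with the obese group. Of all genes, 2.67% were called lower in it and 7.19% higher. Of 7 general adipocyte markers, 0 passed in limma (0 also at an unadjusted p under 0.05), with differences from -0.24 for Cd36 to 0.49 for Pnpla2. Of 5 endothelial markers, 3 were lower and 1 was higher: Cldn5, a tight junction protein, by -2.06, Cdh5, the endothelial cadherin, by -0.96, and Tie1, a receptor kinase, by -0.64, against 0.79 for Vwf. Their log2 summed level was 7.99 to 8.71 on the rosiglitazone arrays, against 8.68 to 9.42 on the obese arrays, and the groups overlapped. The overlap came from rosiglitazone array 2, at 8.71, and obese array 2, at 8.68. The other arrays of these groups had 7.99 to 8.37 and 9.11 to 9.42. Leaving out the 3 arrays, 4 of the 5 were lower, as Tek passed too at -0.64, and Vwf was higher by 0.70. The same counts, 3 lower and 1 higher, held with all arrays against the resveratrol group and against lean controls. The shares of all genes called lower there were 2.81% and 2.56%. Of 10 macrophage markers, 0 passed against the obese group (3 at an unadjusted p under 0.05), and their log2 summed level was 8.64 to 10.74 on the rosiglitazone arrays, against 9.47 to 11.15 on the obese arrays. The part of endothelial cells or macrophages in the difference of the cycle genes was not tested.

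**Figure D5:**
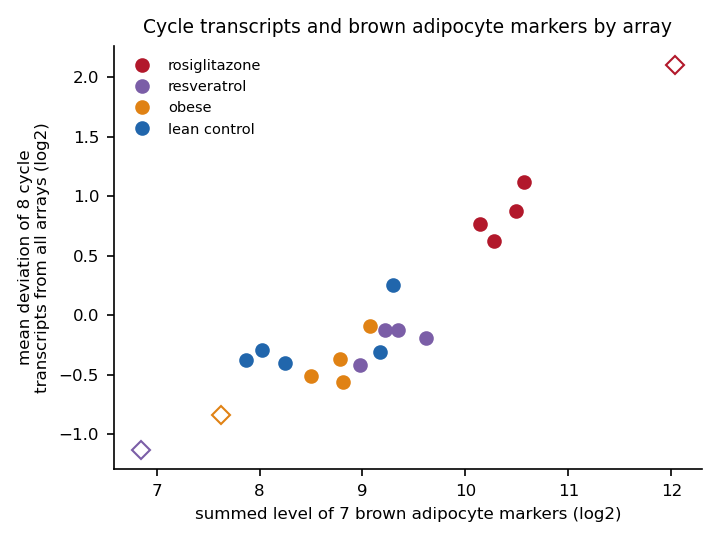
The horizontal axis gives the log2 summed level of 7 brown adipocyte markers and the vertical axis the mean deviation of the 8 cycle genes from their means over all arrays (log2). Each point is an array, coloured by group, and open diamonds mark the 3 arrays that stand apart. The rosiglitazone arrays lie apart at the upper right, with array 2 highest on both axes, and most of the horizontal value is Cidea on each array.

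The 8 cycle genes varied together from array to array. Over all 20 arrays, Pearson's r of each member with the mean of the other 7 was 0.929 to 0.982, and over deviations from group means it was 0.832 to 0.937. These points share arrays and normalisation, and the first range also carries the group difference, so they are given as description. Rosiglitazone array 2 was the highest of its group in 8 of 8 genes, resveratrol array 1 the lowest in 8 of 8, lean control array 1 the highest in 8 of 8 and obese array 2 the lowest in 7 of 8. The gene closest to the members' mean over the 20 arrays was Pdhb (r = 0.984), and next came Aifm1, a mitochondrial flavoprotein (r = 0.983), Atp5f1a, the alpha subunit of ATP synthase (r = 0.980), and Etfdh and Etfa, which pass electrons from fatty acid oxidation to ubiquinone (r = 0.980 and 0.978). Over deviations from group means the values were 0.976 for Aifm1, 0.952 for Atp5f1a, 0.955 for Etfdh, 0.940 for Etfa and 0.939 for Pdhb, which was at rank 8. By this measure Ptgr2 was at rank 2 (r = 0.961), and Atp5pb (0.947) and Cycsl2 (0.943) also ranked above Etfa.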

How the data were processed

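Per the labels, total RNA was hybridised to Affymetrix Rat Gene 2.1 ST arrays. The authors' deposited table holds log2 values, and per the submitters' processing notes they come from RMA (background correction, quantile normalisation and probe summary), of unstated version and settings. No background flag was used, so no level was tested against background. Of 36685 features, 14824 had 1 symbol in the platform's gene table, 829 had several and 21032 were not listed there. The brightest feature per gene was kept, giving 14557 genes, 234 of which had several features. Group means of all 20 arrays were fitted by lmFit and eBayes of limma 3.58.1 under R 4.3.3, with 16 residual degrees of freedom, tested two-sided and adjusted by Benjamini-Hochberg over all genes. Subunit ratios were tested by exact permutation in Python 3.11.15 with scipy 1.17.1. The scripts were tested on simulated data.

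The members and gene lists were chosen with earlier results of these data known. All 9 members are named; of other cycle genes and regulators those past the threshold between the rosiglitazone and obese groups are named, and of feeding and draining genes at most the 6 largest. Ogdhl, Idh2, the cytosolic counterparts, Ppargc1a, Gabpa, Esrra, the genes closest to the members' mean and the markers were named besides. Pck1 was named because it passed as lower than in lean controls without the 3 arrays. Alternatives were quantile normalisation again, centring, a filter on dim genes, the mean of a gene's features, all features, a fold minimum of 1.5, trend and robust eBayes, array weights, the replicate number as a block, fits of only the compared groups, each array left out in turn, and 3 arrays left out together. The labels call replicates biological, and p-values measure the spread between them. A comparison of protein sequences was not run.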

Additional observations from a re-analysis of the deposited data

Results flagged for a closer look

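Within groups, 48 sets of 5 arrays were examined for 1 array far from the others, and 7 were found. Chance gives about 5% of independent sets. These sets reuse the same arrays, and the cycle genes vary together, so the count cannot be weighed against that share. Resveratrol array 1 was far below its group for Idh3a, at 5.65 against 7.19 to 7.58, and for Dlst, at 5.61 against 6.21 to 6.40. The same array had the lowest Idh3a minus Idh3b difference of its group, -1.39 against -0.49 to -0.13, and it carried the skeletal muscle and mammary gland markers given above. Rosiglitazone array 2 was far above its group for Dlst, at 8.57 against 7.01 to 7.41, and for Suclg1, at 8.76 against 7.37 to 7.75. Lean control array 1 was far above its group for Idh3b, at 8.59 against 7.92 to 8.08, and for Idh3g, at 8.37 against 7.60 to 7.76.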

How the results depend on the processing

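The number of cycle genes called was 8 of 8 for the rosiglitazone group against the obese and resveratrol groups, and 0 of 8 in the comparisons without the rosiglitazone group, under every alternative run. Against lean controls it was 8, or 7 with all features tested (Mdh2 adjusted p = 0.0612), with the replicate block (0.0644) and in 6 fits without 1 array. Over all 10 fits without 1 array, the Mdh2 difference ranged from 0.85 to 1.15. The share of all tested genes or features called in either direction moved too. Against the obese group it ran from 5.87% (all features) to 19.9% (dim genes left out). In the same settings it ran from 2.74% to 15.3% against the resveratrol group and from 2.85% to 11.3% against lean controls. Comparisons without the rosiglitazone group had at most 2.73%, with array weights. Whether the replicate numbers pair the arrays was not tested, and no chance level was computed for the values that follow. Same-numbered deviations correlated at -0.21 to 0.36, over 0.1 in 5 of 30 cases. An array's best match in another group had its own number in 17 of 60 cases. The replicate block changed no other call.

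Signs turned for differences that had passed no test, and the cause was not tested. With quantile normalisation again, resveratrol minus obese was -0.012 for Cs, -0.12 for Idh3a, -0.076 for Idh3g and -0.078 for Dlst, and resveratrol minus lean control was -0.045 for Sucla2. With array weights, Sucla2 was 0.040 in resveratrol minus obese and Idh3g 0.074 in resveratrol minus lean control. Without the 3 arrays, resveratrol minus obese was 0.038 for Sucla2, 0.059 for Idh3a minus Idh3b and 0.11 for Idh3a minus Idh3g, and resveratrol minus lean control was 0.11 for Idh3g and 0.018 for Mdh2. In that setting Sucla2 minus Suclg1 was -0.027 for rosiglitazone minus obese, and Idh3a minus Idh3b was -0.054 for rosiglitazone minus resveratrol.

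Leaving out 1 array gave ranges in obese minus lean control of -0.037 to 0.36 for Idh3a and -0.043 to 0.11 for Sucla2. In resveratrol minus obese they were -0.11 to 0.37 for Idh3a, -0.020 to 0.29 for Idh3g, -0.034 to 0.22 for Dlst, -0.12 to 0.11 for Sucla2, -0.30 to 0.017 for Idh3a minus Idh3b and -0.13 to 0.080 for Idh3a minus Idh3g. In resveratrol minus lean control they were -0.20 to 0.11 for Idh3g, -0.088 to 0.14 for Sucla2 and -0.33 to 0.018 for Mdh2. In rosiglitazone minus obese they were -0.037 to 0.21 for Idh3a minus Idh3b and -0.012 to 0.14 for Sucla2 minus Suclg1, and Sucla2 minus Suclg1 reached 0.074 in rosiglitazone minus resveratrol.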

Other observations

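Idh2, which makes NADPH in the mitochondrion from the same substrate as the NAD-dependent enzyme, had another pattern against lean controls, chosen for mention after its values were seen. Its levels were 6.05, 7.84, 5.65, 5.70 and 5.70 on the rosiglitazone arrays, against 6.09, 6.82, 5.87, 6.58 and 6.61 on the lean control arrays. With all arrays the difference was -0.21 (limma adjusted p = 0.801). Without rosiglitazone array 2, resveratrol array 1 and obese array 2 it was -0.62 and passed the test (limma adjusted p = 0.0295), while Idh3a, Idh3b and Idh3g passed as higher in the rosiglitazone group in both fits. The lower Idh2 was not particular to rosiglitazone. Without those arrays, obese minus lean control was -0.69 (limma adjusted p = 0.0809) and resveratrol minus lean control -0.71 (limma adjusted p = 0.0662). Neither passed, and rosiglitazone minus obese was 0.07.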
